A study of Mus musculus with 22 samples.

Results

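Mitochondrial biogenesis, the making of new mitochondria, is directed by a small group of nuclear genes, and 8 of them were followed here in mouse chondrocytes and cartilage in which the DNA methyltransferase gene Dnmt1 was present or deleted. They were the coactivators Ppargc1a and Ppargc1b, the transcription factors Nrf1 and Esrra, the mitochondrial transcription proteins Tfam, Tfb1m and Tfb2m, and the mitochondrial DNA polymerase Polg. Genes were taken by an exact match of their symbol to this list and not by a cutoff on measured values. The list itself was chosen with earlier results of these data known. All 8 were found among the 34866 genes of the culture tables and among the 23911 genes of the whole-number cartilage table.

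As background, the proteins of Ppargc1a and Ppargc1b (PGC-1α and PGC-1β) do not bind DNA themselves but dock on factors that do, among them nuclear respiratory factor 1 (Nrf1), GABP and the estrogen-related receptor alpha (Esrra). Those factors switch on nuclear genes of the respiratory chain and the genes whose proteins copy and transcribe the mitochondrial genome. Tfam packages mitochondrial DNA and, together with Tfb2m and the mitochondrial RNA polymerase, starts its transcription. Tfb1m methylates the RNA of the small mitochondrial ribosomal subunit, and Polg is the catalytic subunit of the polymerase that replicates mitochondrial DNA. Cartilage has no blood vessels, and its chondrocytes are known to draw much of their energy from glycolysis.

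The study's title links Dnmt1, the enzyme that maintains CpG methylation, to bone length and to the energy metabolism of growth plate chondrocytes. The 14 culture libraries came from primary chondrocytes of knee articular cartilage, taken at postnatal day 3 to 5 according to the design text. Their genotype was given as Dnmt1 flox (control) or Prrx1-Cre;Dnmt1 flox/flox (conditional knockout, cKO), with 3 control and 3 cKO libraries before treatment (day 0) and 4 control and 4 cKO libraries after 3 days of bone morphogenetic protein 2 (BMP2), which the labels put at 100 ng/µl (day 3). The 8 tissue libraries were made from collagenase-treated cartilage of postnatal day 5 mice, from 4 flox (control) and 4 cKO mice, in each genotype with replicates 1 and 2 labelled male and 3 and 4 female. All groups carry floxed Dnmt1, and Prrx1-Cre is known to act in the early limb mesenchyme, so that the deletion is not limited to chondrocytes. Sex was not given for the cultures, which are labelled as biological replicates without naming animals. P-values set the group differences against the spread between these libraries, which for the cultures may not be a spread between animals.

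The total count per library was 41749327 to 51741478 at day 0, 14434197 to 18918714 at day 3 and 1100198 to 1888896 in cartilage. Dnmt1 itself, in TMM-scaled CPM (counts relative to the library total), lay at 153 to 166 in control and 26.8 to 32.7 in cKO libraries at day 0, at 63.2 to 81.5 and 10.9 to 35.6 at day 3, and at means of 41.5 and 12.9 in the whole-number counts of cartilage. In the estimated counts of the same cartilage libraries the means of Dnmt1 were 52.3 and 30.2 CPM, a smaller difference. Its level followed the genotype labels in each setting, with no overlap. All 8 chondrocyte markers were detected above the floor of 3 counts in every group, which fits the label. Their summed level was 129000 to 136000 CPM in control against 47400 to 57700 in cKO at day 0, 80700 to 100000 against 931 to 15000 at day 3, and 60600 to 91900 against 26900 to 55900 in cartilage. The summed skeletal muscle markers went the other way, from 14.1 to 15.5 CPM in control to 75.6 to 80.4 in cKO at day 0, from 2.95 to 3.72 to between 177 and 2290 at day 3, and from 18.6 to 24.3 to between 65.2 and 99.0 in cartilage. Among the skeletal muscle markers, Myod1, Myog and Tnnc2 stayed at or under 3 counts in every control culture library. Replicate 4 of the day 3 cKO cultures stood apart from the other 3 libraries of its group. Its chi-square per degree of freedom over genes was 123.9 to 138.4 against them, where pairs among the others gave 7.424 to 10.88. It also held the lowest sums of both marker lists, at 931 CPM for chondrocytes and 177 CPM for skeletal muscle. Its Dnmt1 level, 10.9 CPM, was the lowest of its group too, where replicates 1, 2 and 3 had 34.2, 35.6 and 22.2 CPM. In bulk RNA, a smaller number of cells of a type and less RNA per cell cannot be told apart.

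In the GENCODE M21 annotation of build GRCm38 the coactivator gene Ppargc1a (ENSMUSG00000029167) at chr5:51454250-51567726 lies on the minus strand, and the other coactivator is Ppargc1b (ENSMUSG00000033871). The DNA-binding factors are Nrf1 (ENSMUSG00000058440) at chr6:30047988-30153458 on the plus strand and Esrra (ENSMUSG00000024955) at chr19:6910977-6921813 on the minus strand. The genes of mitochondrial transcription and replication, all on the minus strand, are Tfam (ENSMUSG00000003923) at chr10:71225464-71238280, Tfb1m (ENSMUSG00000036983) at chr17:3519256-3557781, Tfb2m (ENSMUSG00000026492) at chr1:179528055-179546267 and Polg (ENSMUSG00000039176) at chr7:79446231-79466362. The tables give 1 value per gene, so its transcripts are not told apart.

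The stretches upstream of Ppargc1a and Esrra are shown first because Dnmt1 acts on CpG sites and because these genes differed most between the genotypes at day 0, in opposite directions, by the levels given further on. Methylation itself was not analysed here. Both sequences are the 250 bases before a RefSeq start of the gene, at chr5:51567726-51567975 for Ppargc1a and chr19:6921809-6922058 for Esrra. They are from GRCm38.p6, minus strand, written 5′ to 3′ along the gene, with CpG sites in capitals. For Ppargc1a this start lies at the upstream end of the annotated gene, and any other starts among its 5 annotated transcripts were not examined.
Ppargc1a: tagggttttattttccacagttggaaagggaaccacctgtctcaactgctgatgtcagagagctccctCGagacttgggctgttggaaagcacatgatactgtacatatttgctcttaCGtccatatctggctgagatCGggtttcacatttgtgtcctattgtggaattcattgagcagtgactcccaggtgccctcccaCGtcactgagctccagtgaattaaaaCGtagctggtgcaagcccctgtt
Esrra: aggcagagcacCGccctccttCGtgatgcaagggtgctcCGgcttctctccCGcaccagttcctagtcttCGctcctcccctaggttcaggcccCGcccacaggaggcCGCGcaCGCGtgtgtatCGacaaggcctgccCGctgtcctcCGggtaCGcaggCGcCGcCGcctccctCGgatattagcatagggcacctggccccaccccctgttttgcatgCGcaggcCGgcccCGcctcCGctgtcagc
The Ppargc1a stretch held 5 CpG sites and the Esrra stretch 22. Over the 300-base window from 250 bases before to 50 after the start, the median of 32851 RefSeq promoter windows was 7 CpG sites. In that window Ppargc1a had 5, Tfb1m 16, Tfam 21, Esrra 25, Polg 26, Tfb2m 32 and Nrf1 43, with 2 in a second Nrf1 window. RefSeq windows were examined for 7 of the 8 genes, and Ppargc1b was left out.

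The same windows were searched on both strands for the letters of binding elements of the factors themselves. The NRF1 core GCATGCGC, present in 2.71% of all windows, occurred in Tfb2m and Esrra. The GABP element CCGGAAG, present in 8.86%, occurred in Tfam and Polg. These 4 stretches, with the element in capitals, show where the letters lie.
Tfb2m: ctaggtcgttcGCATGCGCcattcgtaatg
Esrra: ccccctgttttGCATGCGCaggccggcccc
Tfam: cctgccgcggaCCGGAAGtccgggcttccc
Polg: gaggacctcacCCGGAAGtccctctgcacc
They lie at chr1:179546245-179546274, chr19:6921824-6921853, chr10:71238073-71238102 and chr7:79466293-79466322, all on the minus strand. The element began 34 bases before the start in Esrra, 47 bases before it in Tfam and 38 bases before it in Polg, and 13 bases past it in Tfb2m. The cyclic AMP element TGACGTCA (1.79% of windows) and the estrogen-related receptor element TCAAGGTCA (0.423%) occurred in none of the windows searched. For Ppargc1a these cover only 1 start, and other promoter sequence of that gene was not searched. A match of letters is a description and not evidence of binding.

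The regulators did not move as a block. At day 0, 7 of the 8 were called by edgeR's quasi-likelihood test at an adjusted p under 0.05, 3 higher in cKO (Nrf1, Esrra and Polg) and 4 lower (Ppargc1a, Tfam, Tfb1m and Tfb2m), where 33.0% of all 15530 genes tested were called higher and 31.6% lower. At day 3 Esrra was called higher and Ppargc1a, Tfam and Polg lower, beside 25.5% higher and 22.6% lower among 13924 genes. In cartilage 3 of the 8 had enough counts for the test and 0 were called, beside 3.15% higher and 3.04% lower among 8793 genes. There, 1 of the 3 (Nrf1) had an unadjusted p under 0.05 and DESeq2 also called 0, with 0 at an unadjusted p under 0.05. The median log2 fold change of the members was -0.05 at day 0 and -0.14 at day 3, against 0.01 for all genes at each. With so many genes called in the cultures, a call alone does not set a member apart. The number of members called was somewhat above the share of all genes at day 0 and close to it at day 3, and the excess at day 0 was not tested. The members differ from one another in direction and size.

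**Figure D1:**
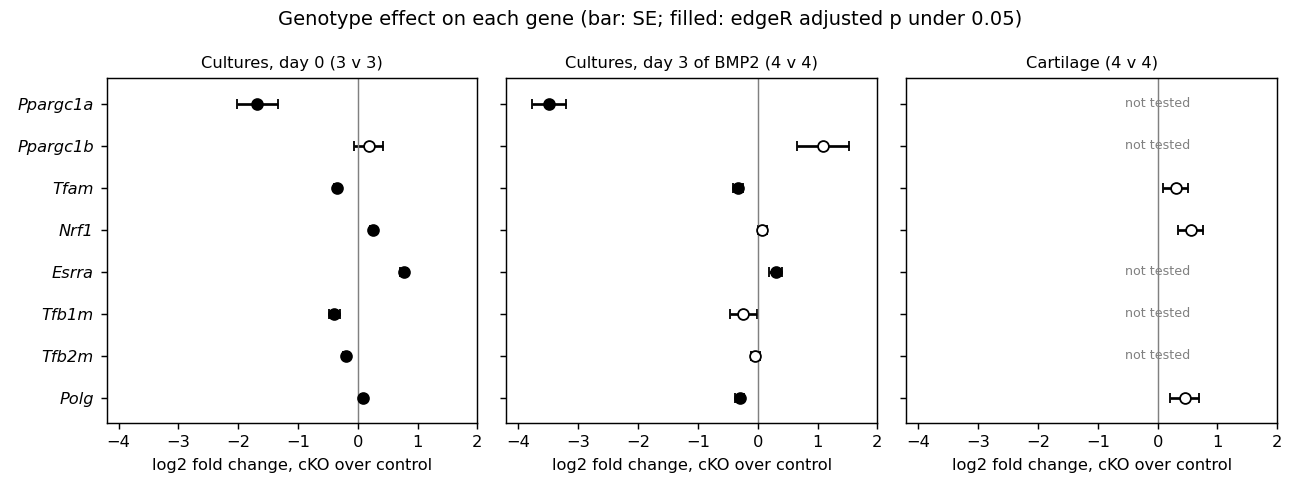
Log2 fold change of each gene in cKO over control (horizontal axis) at day 0, at day 3 of BMP2 and in cartilage; bars are standard errors and filled points have an edgeR adjusted p under 0.05. Ppargc1a lies farthest from 0 at both culture days, at -1.68 and -3.49, and 5 genes did not pass the count filter in cartilage.

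Ppargc1a, the coactivator best known for driving mitochondrial biogenesis in response to cold, exercise and fasting, rose steeply with BMP2 in control cultures and stayed low in cKO cultures. Before treatment the control libraries held 0.568, 0.528 and 0.693 CPM, and the cKO libraries 0.168, 0.275 and 0.116 CPM. After BMP2, at day 3, the values were 6.51, 7.33, 7.44 and 6.72 CPM in control and 0.562, 0.543, 0.365 and 0.979 CPM in cKO. The genotypes did not overlap at either day, and the cKO libraries at day 3 spanned the level of the control libraries before treatment. Before treatment cKO cultures kept 31.1% of the control level, a log2 difference of -1.68 (SE 0.345, edgeR adjusted p = 0.0021). At day 3 they kept 8.89%, a log2 difference of -3.49 (SE 0.277, edgeR adjusted p = 3.74e-05). These levels rest on few reads, with 6, 7 and 12 counts in the cKO libraries at day 0 and 7 to 17 at day 3, against 95 to 135 in the control libraries of day 3.

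From day 0 to day 3 Ppargc1a rose 11.7-fold in control cultures (log2 3.55, SE 0.29, edgeR adjusted p = 6.69e-07) and 3.24-fold in cKO cultures (log2 1.70, SE 0.344, edgeR adjusted p = 0.000853). The first rise was the largest of the 8 genes in control cultures, and the second the largest in cKO cultures. The genotype difference itself grew between the days, by a log2 value of -1.85 (SE 0.447, edgeR adjusted p = 0.0143). That call was lost without day 0 cKO replicate 2, at -1.47 (edgeR adjusted p = 0.0645). Day, BMP2 and count table change together, so they cannot be told apart as the source of a change from day 0 to day 3.

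The chondrocyte markers moved in the same direction as Ppargc1a between genotypes, with 8 of 8 called lower in cKO at both culture days. Their median log2 fold change was -1.92 at day 0 and -3.23 at day 3. Of the 10 skeletal muscle markers, 5 of 8 tested were called higher at day 0 and 9 of 9 tested at day 3. Within the day 3 cKO libraries, replicate 4 had the highest Ppargc1a, 0.979 CPM, with the lowest chondrocyte sum. Without that library the day 3 difference of Ppargc1a was -3.82 (edgeR adjusted p = 8.25e-07). The part of the cell makeup in the Ppargc1a result was not tested.

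**Figure D2:**
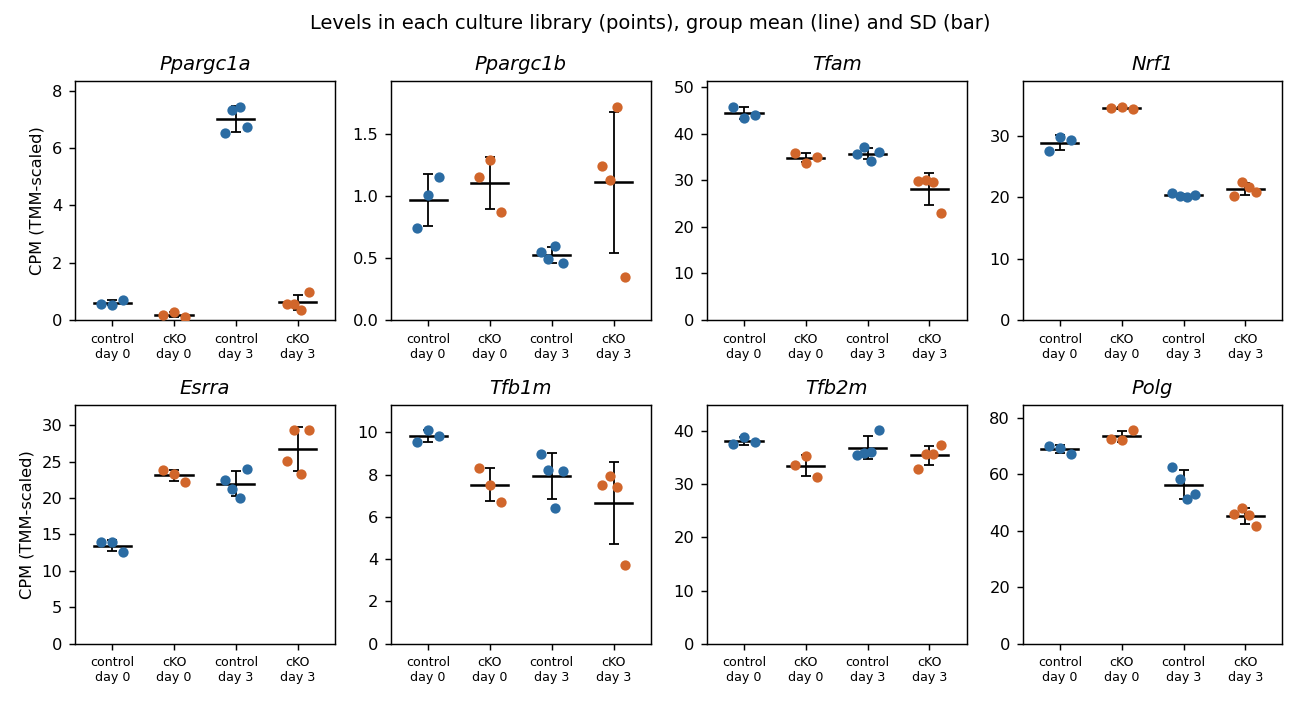
Level of each gene in CPM (vertical axis, from 0) in every culture library (points), by genotype and day, with the group mean (line) and SD (bar). Ppargc1a stands at 6.51 to 7.44 CPM in the 4 control libraries of day 3 and under 1 CPM in all others; in Tfam the cKO points lie under the control points of the same day.

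Ppargc1b, the second coactivator, did not follow Ppargc1a. Before treatment it read 0.743, 1.01 and 1.15 CPM in control and 1.15, 1.29 and 0.872 CPM in cKO. The day 3 values were 0.548, 0.488, 0.6 and 0.461 CPM in control and 1.24, 1.13, 1.72 and 0.346 CPM in cKO. The genotypes overlapped at both days, at day 3 through the cKO library of replicate 4 alone, which lay under every control library. The log2 fold change in cKO was 0.18 at day 0 (edgeR adjusted p = 0.533) and 1.09 at day 3 (SE 0.434, edgeR adjusted p = 0.067). Without that library the day 3 value was 1.37 (edgeR adjusted p = 0.00302) and the gene was called higher. It was also called in a fit of all 14 cultures, at 1.08 (edgeR adjusted p = 0.0292).

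Over the 3 days Ppargc1b went from a mean of 0.970 CPM (SD 0.209, n = 3) to 0.525 CPM (SD 0.0621, n = 4) in control cultures, a log2 change of -0.88 (edgeR adjusted p = 0.0733). It was called in a fit of the control cultures alone (edgeR adjusted p = 0.0148) and without day 3 cKO replicate 3 (edgeR adjusted p = 0.0481) or 4 (edgeR adjusted p = 0.0103). In cKO cultures it averaged 1.1 CPM at day 0 (SD 0.211, n = 3) and 1.11 CPM at day 3 (SD 0.57, n = 4), a log2 change of 0.02 (edgeR adjusted p = 0.97). The difference between these changes was 0.90 (edgeR adjusted p = 0.285), and 1.19 without day 3 cKO replicate 4 (edgeR adjusted p = 0.0264). In the day 3 control libraries Ppargc1b had 7 to 10 counts.

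Nrf1, the DNA-binding factor that many nuclear genes of the respiratory chain share as an activator, was higher in cKO before treatment and lay close to control after it. Before treatment Nrf1 read 27.5, 29.8 and 29.3 CPM in control and 34.4, 34.7 and 34.3 CPM in cKO, with no overlap. The log2 fold change was 0.25 (SE 0.0455, edgeR adjusted p = 0.000945). After BMP2 the level was 20.6, 20.2, 20.0 and 20.4 CPM in control and 20.1, 22.5, 21.7 and 20.9 CPM in cKO. The groups overlapped, and the log2 fold change was 0.08 (SE 0.0673, edgeR adjusted p = 0.338). Nrf1 fell between the days in both genotypes, by 0.50 on the log2 scale in control (edgeR adjusted p = 5.25e-06) and by 0.69 in cKO (edgeR adjusted p = 3.41e-07). The difference between these falls, -0.19, was not called (edgeR adjusted p = 0.109).

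Esrra, the orphan nuclear receptor through which PGC-1α acts on genes of oxidative metabolism, was the member with the largest rise in cKO at day 0. Its level there was 13.9, 13.9 and 12.6 CPM in control and 23.8, 23.3 and 22.2 CPM in cKO, so that every cKO library lay above every control library. The log2 fold change was 0.77 (SE 0.0606, edgeR adjusted p = 5.03e-06), a 1.71-fold rise. At day 3 the control libraries had reached 22.5, 21.3, 20.0 and 24.0 CPM, and the cKO libraries stood at 25.1, 29.3, 23.3 and 29.3 CPM. The lowest cKO library then lay under the highest control library, and the log2 fold change was 0.30 (SE 0.104, edgeR adjusted p = 0.0403). That call did not hold in 6 of 8 fits that left out a library (without control replicate 1, 2 or 3, or cKO replicate 1, 2 or 4), whose adjusted p ran up to 0.103.

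With BMP2, Esrra rose 1.63-fold in control cultures (log2 0.70, SE 0.0929, edgeR adjusted p = 3.38e-05). In cKO cultures its log2 change was 0.21 (SE 0.0907, edgeR adjusted p = 0.0578), called by DESeq2 (adjusted p = 0.0346) and by edgeR without day 3 cKO replicate 3 (0.25, adjusted p = 0.0268). The genotype difference shrank between the days by a log2 value of -0.49 (SE 0.129, edgeR adjusted p = 0.0207), a call lost without day 0 control replicate 3 (adjusted p = 0.0597) or day 0 cKO replicate 1 (adjusted p = 0.054). Esrra shares exon sequence with Trmt112 on the opposite strand, and whether the authors counted by strand was not given. Trmt112 was called lower in cKO at day 0 (log2 -0.35, edgeR adjusted p = 0.000246), the opposite direction to Esrra.

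Of the proteins that act inside the mitochondrion, Tfam was lower in cKO by a similar amount at both days. At day 0 it was 45.8, 43.4 and 44.0 CPM in control and 35.9, 33.8 and 34.9 CPM in cKO. By day 3 it was 35.6, 37.1, 34.1 and 36.1 CPM in control and 29.8, 30, 29.7 and 22.9 CPM in cKO. No cKO library reached the lowest control library of its day, and the lowest value of all was that of replicate 4. The genotype difference in log2 was -0.35 at day 0 (SE 0.0432, edgeR adjusted p = 8.97e-05), and -0.33 at day 3 (SE 0.0901, edgeR adjusted p = 0.0153), or -0.26 without replicate 4 (edgeR adjusted p = 0.00569). Tfam also fell between the days in each genotype, by 0.31 on the log2 scale in control (edgeR adjusted p = 0.00529) and by 0.31 in cKO (edgeR adjusted p = 0.00498). The difference between these falls was 0.00 (SE 0.117).

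Tfb1m, the ribosomal RNA methyltransferase, was lower in cKO at day 0, with 9.55, 10.1 and 9.81 CPM in control and 8.31, 7.53 and 6.73 CPM in cKO. The groups did not overlap, and the log2 fold change was -0.39 (SE 0.0907, edgeR adjusted p = 0.00444), a call lost in the fit of all 14 cultures (edgeR adjusted p = 0.166). At day 3 it was 8.97, 8.20, 6.42 and 8.17 CPM in control and 7.53, 7.94, 7.40 and 3.74 CPM in cKO. These groups overlapped, with the lowest value again in cKO replicate 4, and the log2 fold change of -0.24 was not called (edgeR adjusted p = 0.416). Without that library it was -0.06 (edgeR adjusted p = 0.743). The change of Tfb1m between the days was -0.31 on the log2 scale in control (edgeR adjusted p = 0.217) and -0.17 in cKO (edgeR adjusted p = 0.48). In control it was called without day 3 cKO replicate 4 (edgeR adjusted p = 0.0217) and in a fit of the control cultures alone (edgeR adjusted p = 0.0404). The difference between the changes in the genotypes, 0.13, was not called (edgeR adjusted p = 0.804). Tfb1m shares exon sequence with the opposite-strand gene Tiam2, which at 101 CPM in day 0 control lay above Tfb1m and was called slightly higher in cKO at day 0 (log2 0.14, edgeR adjusted p = 0.00318).

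Tfb2m, the transcription initiation factor, was slightly lower in cKO at day 0 and close to control at day 3. It stood at 37.5, 38.9 and 38.0 CPM in control and 33.6, 35.3 and 31.4 CPM in cKO at day 0, without overlap (log2 -0.19, SE 0.0514, edgeR adjusted p = 0.00874). By day 3 it was 35.4, 35.9, 36.0 and 40.1 CPM in control and 32.8, 35.7, 35.7 and 37.3 CPM in cKO. The groups overlapped there and the log2 fold change was -0.04 (SE 0.0738, edgeR adjusted p = 0.67). Its changes between the days were -0.05 in control and 0.08 in cKO, and neither was called (edgeR adjusted p = 0.537 and 0.269). The difference between these changes, 0.13, was not called (edgeR adjusted p = 0.349), so a change of the Tfb2m genotype effect between the days was not detected.

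Polg, the polymerase that copies the mitochondrial genome, was nearly level between genotypes at day 0 and lower in cKO at day 3. At day 0 it was 70, 69.1 and 67.3 CPM in control and 72.4, 72.2 and 75.5 CPM in cKO. The log2 fold change of 0.09 was called (SE 0.0342, edgeR adjusted p = 0.0453), but not by DESeq2 (adjusted p = 0.122) or in any of the 6 edgeR fits that left out a library. With BMP2 it was 62.6, 58.4, 51.3 and 52.9 CPM in control and 45.8, 48.2, 45.6 and 41.5 CPM in cKO. Every cKO library lay under every control library, and the log2 fold change was -0.30 (SE 0.0782, edgeR adjusted p = 0.0131).

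Polg fell by 0.29 on the log2 scale over the 3 days in control cultures (edgeR adjusted p = 0.00328) and by 0.70 in cKO cultures (edgeR adjusted p = 3.41e-06). The fall differed between genotypes by -0.41 (SE 0.1, edgeR adjusted p = 0.0158). Polg shares exon sequence with the opposite-strand gene Fanci, a DNA repair gene at 13.0 CPM in day 0 control and 6 CPM in day 3 control, which also fell between the days in both genotypes (log2 -1.12 and -1.42). Its own genotype differences were not called (edgeR adjusted p = 0.199 at day 0 and 0.58 at day 3).

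Counted over the group, the change from day 0 to day 3 called 2 members higher and 3 lower in control cultures, beside 28.1% higher and 28.8% lower among 14909 genes. In cKO cultures it called 1 higher and 3 lower, beside 32.4% and 29.8%. These comparisons were fitted together and share one estimate of spread. The difference between genotypes in that change called 0 members higher and 3 lower (Ppargc1a, Esrra and Polg), beside 9.94% higher and 6.89% lower of all genes, and 1 further member, Nrf1, had an unadjusted p under 0.05. All 3 called differences were negative, but from different patterns. Ppargc1a rose less in cKO, Esrra was called higher with BMP2 in control but not in cKO, and Polg fell further in cKO.

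**Figure D3:**
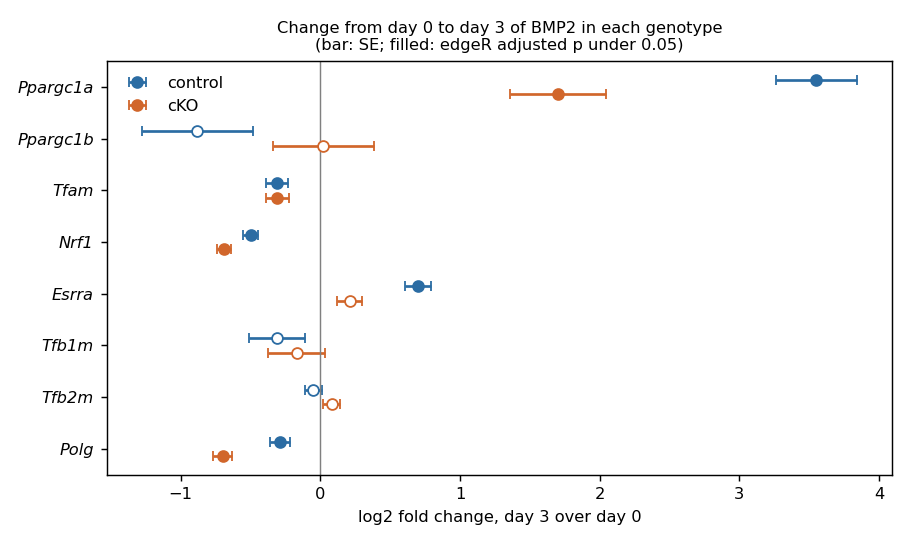
Log2 fold change from day 0 to day 3 of BMP2 (horizontal axis) in control and cKO cultures, with standard errors; filled points have an edgeR adjusted p under 0.05. Ppargc1a rises by 3.55 in control and 1.70 in cKO, the Tfam changes coincide at -0.31, and Polg falls by 0.29 in control and 0.70 in cKO.

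Levels between the genes were compared in the cultures as mean CPM per kilobase of exon. The length is the union of exons over all annotated transcripts, 10742 bases for Polg and 10282 for Nrf1 against 2804 for Tfb2m. The order therefore depends on the annotation. In CPM without this length, Polg lay above Tfb2m in day 0 control cultures, at means of 68.8 and 38.1. In day 0 control cultures the order was Tfb2m at 13.6, Tfam at 10.0, Polg at 6.41, Esrra at 3.07, Nrf1 at 2.81, Tfb1m at 2.72, Ppargc1b at 0.243 and Ppargc1a at 0.0904 CPM per kilobase. Esrra overlapped Nrf1, and Nrf1 overlapped Tfb1m, while Esrra and Tfb1m did not overlap each other. In day 0 cKO cultures the order was kept and no neighbours overlapped, with Esrra at 5.26 CPM per kilobase. In day 3 control cultures Ppargc1a, at 1.06 CPM per kilobase, passed Ppargc1b at 0.131, while Polg overlapped Esrra, and Tfb1m overlapped Nrf1. In day 3 cKO cultures Ppargc1a was again last, at 0.0930 CPM per kilobase, and overlapped Ppargc1b at 0.278. In the same group Tfam at 6.33 overlapped Esrra at 6.09 CPM per kilobase, and Nrf1 overlapped Tfb1m. By this measure the coactivators were the lowest in messenger RNA of the 8 in every group.

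In cartilage at postnatal day 5 the counts were low. The whole-number counts of Nrf1 were 25, 31, 15 and 45 in control and 36, 32, 33 and 40 in cKO libraries, with a mean of 20.1 CPM (SD 5.36, n = 4) in control and 29.8 CPM (SD 2.7, n = 4) in cKO. The cKO libraries, at 27.3 to 33.6 CPM, all lay above the control libraries, at 13.5 to 25.9 CPM, and the log2 fold change of 0.55 (SE 0.21) was not called (edgeR adjusted p = 0.139). In the estimated counts the genotypes overlapped, with cKO replicate 2 at 22.9 CPM under control replicate 2 at 25.2 CPM (log2 0.50, edgeR adjusted p = 0.133). Tfam had 24, 23, 23 and 36 counts in control and 29, 26, 33 and 21 in cKO, with overlapping levels and a log2 fold change of 0.30 (edgeR adjusted p = 0.431). This value has the opposite sign to Tfam in the cultures. Polg had 18, 15, 24 and 31 counts in control and 22, 28, 19 and 31 in cKO, also overlapping, with a log2 fold change of 0.45 (edgeR adjusted p = 0.286).

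Ppargc1a had 1, 4, 4 and 11 counts in the control cartilage libraries and 1, 0, 1 and 1 in the cKO libraries. A count of at most 3 is treated as the floor, so all 4 cKO libraries and 1 control library were at the floor. Control cartilage averaged 3.3 CPM (SD 1.97, n = 4) against 0.632 CPM (SD 0.422, n = 4) in cKO, and a two-sided exact permutation test of that difference gave p = 0.114, with 0.0286 the smallest p that 4 against 4 can give. In the estimated counts of the same libraries it had 2, 4, 6 and 16 counts in control and 2, 0, 1 and 5 in cKO, and the groups overlapped (two-sided exact permutation p = 0.171). A difference in Ppargc1a was thus not detected in cartilage in either table.

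Of the other 4 genes under the count filter in cartilage, Ppargc1b had 1 to 4 counts in control and 0 to 3 in cKO, Esrra 7 to 14 and 6 to 16, Tfb1m 2 to 8 and 3 to 7, and Tfb2m 2 to 7 and 1 to 5. Their genotypes overlapped in each case, and the two-sided exact permutation p lay between 0.314 and 0.686. In the estimated counts the means of Tfb1m were 2.23 CPM in control and 3.99 CPM in cKO, still overlapping, and its two-sided exact permutation p was 0.0571, where the whole-number counts gave 0.686. For Ppargc1b the estimated counts gave 0.143 by the same exact permutation test. Tfb2m differed between the 2 deposited tables more than any other member. Its mean in control was 3.40 CPM in the whole-number counts and 18.4 CPM in the estimated counts, and its cKO mean moved from 2.30 to 21.2 CPM. With the filter off, its log2 fold change was -0.56 in the whole-number counts, and in the estimated counts it was 0.19 (edgeR adjusted p = 0.585), so no direction is given for it. In the cartilage libraries the genotype cannot be told apart from the library pool, since pool 1 held every control library and pool 2 every cKO library.

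**Figure D4:**
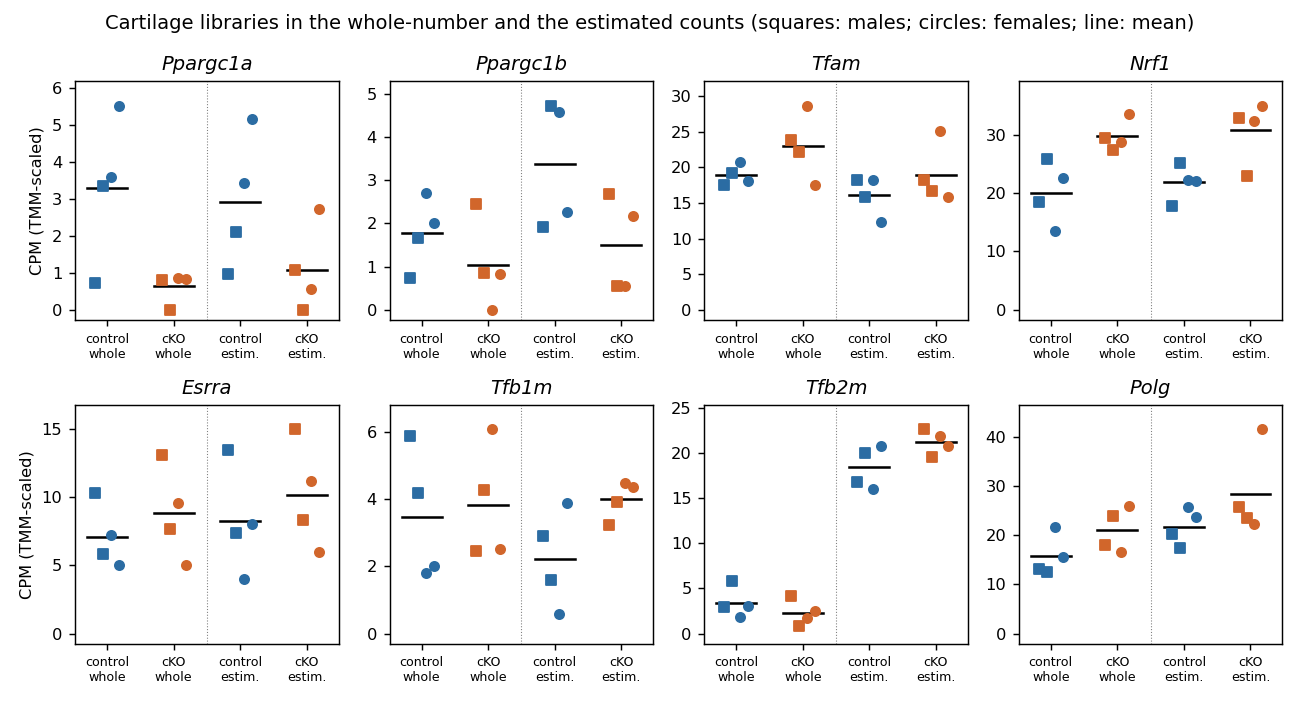
Level of each gene in CPM (vertical axis) in the 8 cartilage libraries, in the whole-number counts (left of the dotted line) and the estimated counts (right), by genotype; squares are males, circles females and lines group means. The Tfb2m control mean moves from 3.40 to 18.4 CPM between the tables, and the Nrf1 points of cKO lie above those of control in the whole-number counts and overlap them in the estimated counts.

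Around the 8 genes, lists of related genes were counted in the same fits and are read against the share of all genes called, which was 33.0% higher and 31.6% lower at day 0, 25.5% and 22.6% at day 3, and 3.15% and 3.04% in cartilage. Among partner factors, the proteins that bind or modify the coactivators and their DNA-binding factors, 6 of 21 tested were higher and 3 lower in cKO at day 0, and 4 of 20 higher and 1 lower at day 3. In each direction and at both days these counts lie under the share of all genes. The median log2 fold changes of the list were 0.09 and 0.03. The largest change at day 0 was in Pparg, the nuclear receptor of fat cell formation and a known partner of PGC-1α, with 1.18 at day 0 (SE 0.0873, edgeR adjusted p = 3.58e-06) and 0.61 at day 3 (edgeR adjusted p = 0.026). Prkaa1, a catalytic subunit of the energy sensor AMPK, was higher by 0.27 and 0.66, and Nrip1, a corepressor that counters PGC-1α, by 0.61 at day 3 (edgeR adjusted p = 0.00319) after being lower at day 0 (-0.15, edgeR adjusted p = 0.0126). In cartilage 0 of 16 partner factors were called.

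Among genes of mitochondrial DNA replication and transcription the number called lower was near the share of all genes, and the number called higher under it. At day 0, 11 of 27 were lower and 2 higher, with a median of -0.10, and at day 3, 7 were lower and 1 higher, with a median of -0.07. Lonp1, the matrix protease known to degrade Tfam, fell by 1.08 on the log2 scale at day 0 (SE 0.0774, edgeR adjusted p = 2.85e-06) and by 0.71 at day 3 (edgeR adjusted p = 0.000959). Primpol, a primase that restarts stalled replication, fell by 0.66 at each day, and Polg2, the accessory subunit that partners Polg, by 0.86 at day 3 (SE 0.168, edgeR adjusted p = 0.00329). In cartilage 8 of the 27 were tested and 0 called.

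Respiratory and import genes, the classic targets of Nrf1, GABP and the coactivators, were called in both directions in numbers near or under the share of all genes. At day 0, 6 of 24 were higher and 9 lower (median -0.07), and at day 3, 5 were higher and 4 lower (median 0.01). Alas1, the rate-limiting enzyme of heme synthesis, was higher by 0.70 and 1.05 (edgeR adjusted p = 1.37e-06 and 1.71e-05). Acadm, which starts the oxidation of medium-chain fatty acids, was higher by 0.88 at day 3. Atp5g1, which encodes a subunit c of ATP synthase, was lower by a log2 value of -0.52 and -0.78, and Sdhb, the iron-sulfur subunit of complex II, by -0.58 and -0.38. In cartilage 0 of 22 were called.

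Among genes of mitochondrial dynamics and removal, 2 of 17 were higher and 8 lower at day 0 (median -0.09), and 6 higher and 2 lower at day 3 (median -0.01), beside the shares of all genes given earlier. Falls at day 0 included those of mitophagy genes, Bnip3 by 1.49 on the log2 scale (SE 0.0967, edgeR adjusted p = 1.59e-06) and the kinase Pink1 by 0.84. At day 3 the mitophagy receptor Bnip3l was higher by 0.63 and the fusion gene Mfn1 by 0.52. In cartilage 0 of 14 were called.

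Messages from the mitochondrial genome itself, the product of the machinery that Tfam and Tfb2m serve, were called higher or not called in cKO. At day 0, 9 of 13 were higher and 0 lower (median 0.24), at day 3, 3 were higher and 0 lower (median 0.27), and in cartilage 2 of 10 were higher and 0 lower (median 0.28). The 3 of 13 called higher at day 3 are no more than the 25.5% of all genes called higher there, while 9 of 13 at day 0 stand beside 33.0% and 2 of 10 in cartilage beside 3.15%. Examples were mt-Nd3 at 0.45 (edgeR adjusted p = 0.000726) and mt-Nd2 at 0.37 (edgeR adjusted p = 0.00365) at day 0, mt-Nd2 at 0.54 at day 3 (edgeR adjusted p = 0.00559), and mt-Nd6 at 0.75 in cartilage (edgeR adjusted p = 0.00614). Their share of all counts was 1.55 to 1.72% in control against 1.86 to 2.14% in cKO at day 0, 2.12 to 2.32% against 2.65 to 2.82% at day 3, and 1.79 to 2.13% against 2.52 to 2.78% in cartilage. The shares did not overlap between genotypes in any of the 3 settings, while Tfam messenger RNA was lower in cKO in the cultures. The chondrocyte and skeletal muscle sums given earlier differed between genotypes in the same libraries. So did other markers. At day 3, 4 of 5 osteoblast markers were higher in cKO, as was Fabp4 by 4.05 on the log2 scale, the only 1 of 6 fat cell markers tested there. In cartilage 3 of 3 tested osteoclast markers and 2 of 3 tested blood markers were lower. In the cultures 1 of 4 tested osteoclast markers was higher and 1 lower at day 0, and 1 of 2 higher at day 3. Of the blood markers, 2 of 3 tested were higher at day 0 and 1 of 2 at day 3, with 0 lower. The part of all these marker differences in the results of the lists and of the members was not tested.

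**Figure D5:**
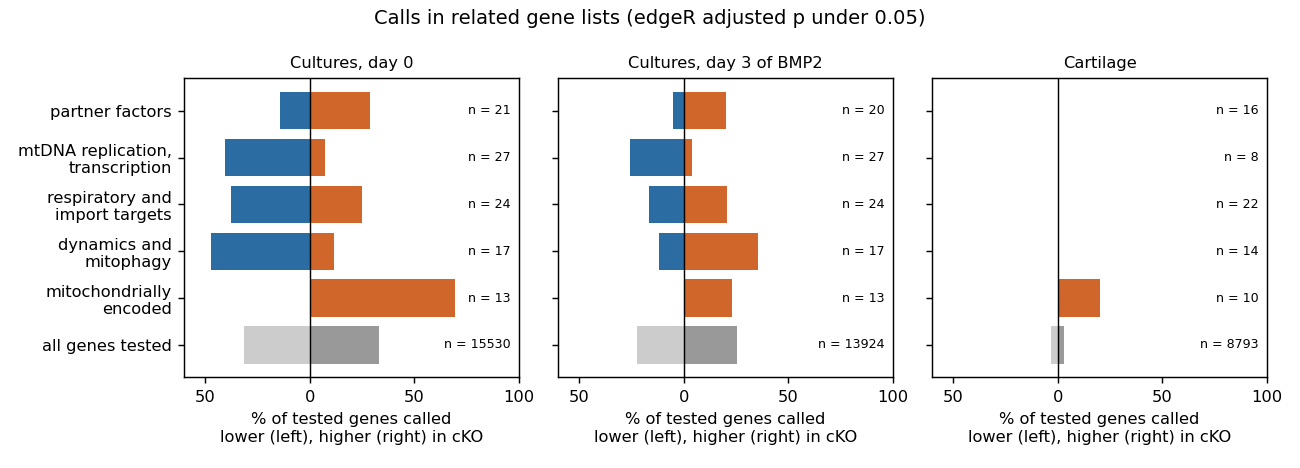
Share of the tested genes of each list that edgeR called higher (right of 0) or lower (left of 0) in cKO at an adjusted p under 0.05, with n tested, beside all genes tested. Mitochondrially encoded messages were called higher and not lower, with 9 of 13 at day 0 beside 33.0% of all genes. Of the replication and transcription genes 11 of 27 were called lower at day 0, near the 31.6% of all genes.

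The genes most like each of 3 members over the 14 cultures were found by the root mean square difference in log2 CPM after centring, among 12745 genes. For Ppargc1a, whose own log2 level spans 5.35, they were Rspo3 (0.56), Ppp1r3b (0.66), Mfap2 (0.68), Dpysl4 (0.69) and Ptn (0.75). Rspo3, a secreted enhancer of Wnt signalling, went from a mean of 31.9 CPM in day 0 control to 251 in day 3 control, and from 15.2 to 23.9 CPM in cKO. For Ppargc1b, with a span of 2.11, they were Scarb1 (0.30), Tnfsf9 (0.31), Hoxd8 (0.31), Camk2a (0.32) and Rfx3 (0.33). For Tfam, with a span of 1.0, they were Gne (0.05), Arcn1 (0.05), Hnrnpc (0.07), Agtpbp1 (0.07) and Dap3 (0.07). Likeness here is a description over libraries that share genotype, day and table.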

How the data were processed

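Culture libraries were made from total RNA with a directional kit, and cartilage libraries with a barcoded 3′ method, per the labels' protocols. For the cultures the authors deposited estimated counts (23.5% of values not whole, rounded here before any test) and, for cartilage, whole-number counts (used as the main values) and estimated counts (the alternative). The build was GRCm38, and for cartilage UMI-tools 1.1.1, Trim Galore 0.6.7, HISAT2 2.2.1, featureCounts 2.0.1 and DESeq2 1.34.0 are named, per the submitters' processing notes. The culture aligner and counter are not given in the sources used here, nor which tool made which cartilage table. Unused per-sample columns numbered 0.

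Genotype effects were tested with edgeR 4.0.16 (R 4.3.3; TMM, filterByExpr, quasi-likelihood test, Benjamini-Hochberg over all genes tested), at each day on that day's libraries and in cartilage with sex as covariate. Changes with day and their difference came from 1 fit of the 14 cultures. SE is the absolute log2 fold change over the square root of F. Single genes under the cartilage filter were compared by exact permutation (scipy 1.17.1). CPM of cultures use 1 TMM scaling of all 14 libraries, and exon lengths come from GENCODE M21, matched by 34582 of 34866 culture identifiers. Alternatives were DESeq2 1.42.0, RLE scaling, no filter, a replicate block, other sample sets, the estimated counts, no sex term, and leaving out each library. The edgeR procedure was tested on simulated data with sizeable changes in well-counted genes only. That test does not cover small changes or genes with few counts. Floors cover counting error only.

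The members, gene lists and tests were chosen with earlier results of these data known. Named beyond the 8 members are up to 3 called genes of each list with the largest log2 fold change per genotype comparison, the 5 genes nearest to Ppargc1a, Ppargc1b and Tfam (among genes whose mean log2 CPM was 0 or more), Dnmt1, and genes with exons overlapping a member. A gene that this rule would name is not reported here.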

Additional observations from a re-analysis of the deposited data

Results flagged for a closer look

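In the 32 groups of 4 libraries tested for a value far from the others, where chance gives about 1 in 20, 4 were found. Day 3 cKO replicate 4 was far under the other libraries of its group in Tfam, at 22.9 CPM, and in Tfb1m, at 3.74 CPM. The same library had the lowest Ppargc1b level and the highest Ppargc1a level of its group. Day 3 control replicate 4 was above the other control libraries in Tfb2m, at 40.1 CPM. Cartilage cKO replicate 2 had 0 CPM of Ppargc1a, where the other cKO libraries had 1 count each. At that library's depth a count of 0 allows up to 2.61 CPM.

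For 3 members the genotype effect differed between the culture days by edgeR's test of the difference itself. The difference was -1.85 for Ppargc1a, which was lower in cKO at both days and further at day 3. It was -0.49 for Esrra, whose excess in cKO was smaller at day 3. It was -0.41 for Polg, which was slightly higher in cKO at day 0 and lower at day 3.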

How the results depend on the processing

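Of the values of single members under an alternative, 650 kept their direction or lack of a call and their side of the threshold, 22 lost a call, 10 gained one, and 0 called values changed sign. The losses concerned Polg at day 0, Tfb1m at day 0, Esrra at day 3 and the differences between days of Ppargc1a and Esrra, and the gains Ppargc1b, Tfb1m and Esrra. The cause was not tested. Leaving out 1 library at a time, the number of members called was 6 to 6 at day 0 (7 with all libraries), 3 to 4 at day 3, 0 to 0 in cartilage, 5 to 7 for the change with day in control, 4 to 5 in cKO, and 2 to 4 for the difference. The share of all genes called in each of these fits is not set beside the member counts, so they do not compare the members with other genes. Counts over all genes moved by more than 1.5 times in some fits. At day 0, 10023 genes were called, and 6260 in the fit of all 14 cultures. In cartilage 544 were called, 357 by DESeq2, 1044 with no filter and 362 without cKO replicate 4. For the difference between days 2509 were called, 1591 without day 0 control replicate 2, 1668 without control replicate 3, 1604 without day 0 cKO replicate 3 and 4051 without day 3 cKO replicate 4.

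Replicate numbers are shared between genotypes, but no consistent pairing of the libraries by number was seen. Same-numbered libraries correlated in their deviations from the group means at -0.08 to 0.31 at day 0, -0.19 to -0.10 at day 3 and -0.05 to 0.13 in cartilage, and not every library correlated best with its own number. With the replicate number as a block, 6 members were called at day 0 and 3 at day 3, where Polg at day 0 (adjusted p = 0.0913) and Esrra at day 3 (adjusted p = 0.0515) lost their calls, both by edgeR. The block left 0 called in cartilage, 5 and 4 for the changes with day and 3 for their difference. These member counts are not set against the share of all genes called with the block. Without it, 33.0% of all genes were called higher and 31.6% lower at day 0, and 25.5% and 22.6% at day 3. In the whole-number counts of cartilage 5 of the 8 members had too few counts for the test across genes. For Tfb2m this depended on the count table and not on depth alone. It had 2 to 7 whole-number counts in control and 1 to 5 in cKO, against 28 to 64 and 35 to 42 estimated counts in the same libraries.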
